A study of Mus musculus with 8 samples.

Results

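The data described here are the transcript levels of 10 genes that load and start the replicative DNA helicase, measured in muscle stem cells (MuSCs) of aged mice. The genes were taken by name: the helicase subunits Mcm2, Mcm3, Mcm4, Mcm5, Mcm6 and Mcm7, the helicase loaders Cdc6 and Cdt1, and the activation factors Mcm10 and Cdc45. All 10 are among the 55487 genes of the count table, and all 10 are among the 12060 genes with enough counts to be tested.

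Freshly sorted MuSCs were seeded in growth medium and kept for 72 hours with vehicle (1% DMSO) or with nicotinamide and pyridoxine together (NAM/PN, labelled as a combination at 1 mM), 2 forms of vitamin B3 and vitamin B6. Whether the NAM/PN wells also held DMSO is not stated in the labels. The animals were old wild-type C57BL/6JRj male mice by the study's description, and the cells of 8 mice were combined into 4 pools of 2 mice, each pool giving 1 vehicle and 1 NAM/PN library. Cells were sorted as negative for CD31, CD45, CD11B and SCA1 and positive for CD34 and ITGA7. Pooling hides the difference between mice of a pair, and no library of young or freshly sorted cells was analysed here, so the levels refer to cells already cultured for 72 hours. Libraries were made by QuantSeq, which reads the 3′ end of polyadenylated RNA. Levels are therefore given as counts of 3′ tags per 1000000 (CPM), scaled with edgeR's TMM factors, and were not divided by transcript length.

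In every dividing cell, each stretch of DNA must be copied once and only once per cycle. Before S phase, the origin recognition complex together with CDC6 and CDT1 places a ring of MCM2 to MCM7 on the DNA, a step called licensing. At the start of S phase, CDC45 and the GINS complex join the ring to form the working helicase, and MCM10 is needed for the ring to open and move. Quiescent MuSCs are known to hold little of this machinery and to build it up when they are activated and enter the cycle. Many genes of the set are textbook targets of E2F factors, which drive transcription at the G1 to S transition.

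Promoters of the set are shown first, because they hold the E2F words for which this group of genes is known. The promoter windows ran from 250 bases before to 50 bases after the RefSeq start (GRCm38.p6), and 9 of the 10 genes were matched by symbol, with Mcm4 unmatched. An E2F word was any of TTTGGCGC, TTTCGCGC, TTTCCCGC and TTTGCCGC on either strand, and words could overlap each other. Such a word was found in 6 of the 9 genes, Mcm3, Mcm5, Mcm6, Mcm7, Cdc6 and Cdt1, which is 66.7%. For comparison, 704 of the 27025 genes in the promoter table (2.6%) and 454 of the 8858 tested genes with a promoter (5.13%) held one. In the 6 further replication lists described below, 16 of the 48 genes with a promoter (33.3%) held one too. Below are the 160 bases upstream of the start of 3 genes with E2F words in that stretch and of 2 without, read 5′ to 3′ on the gene's strand, with E2F words and CCAAT words (CCAAT or ATTGG) in capitals.
Mcm5, chr8:75109349-75109508, plus strand: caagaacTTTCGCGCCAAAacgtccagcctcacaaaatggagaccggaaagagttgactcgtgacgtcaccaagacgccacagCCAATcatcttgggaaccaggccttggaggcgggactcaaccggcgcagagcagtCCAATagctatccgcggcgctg
Mcm6, chr1:128359706-128359865, minus strand: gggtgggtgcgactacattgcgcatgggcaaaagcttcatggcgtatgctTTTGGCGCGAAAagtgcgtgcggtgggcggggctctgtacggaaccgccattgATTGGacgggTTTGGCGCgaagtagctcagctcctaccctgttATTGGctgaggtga
Cdc6, chr11:98907991-98908150, plus strand: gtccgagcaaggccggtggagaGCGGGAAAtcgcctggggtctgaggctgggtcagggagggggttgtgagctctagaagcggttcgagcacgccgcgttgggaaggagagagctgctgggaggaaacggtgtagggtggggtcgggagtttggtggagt
Mcm10, chr2:5012792-5012951, minus strand: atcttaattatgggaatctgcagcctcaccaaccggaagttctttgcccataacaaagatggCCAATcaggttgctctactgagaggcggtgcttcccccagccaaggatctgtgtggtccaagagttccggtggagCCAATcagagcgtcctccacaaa
Mcm2, chr6:88898781-88898940, minus strand: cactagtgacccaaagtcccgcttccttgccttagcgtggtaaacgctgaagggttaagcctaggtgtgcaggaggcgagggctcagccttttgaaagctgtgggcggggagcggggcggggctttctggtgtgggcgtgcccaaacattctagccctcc
In Mcm5 and in Mcm6, a pair of E2F words on opposite strands overlapped and gave 1 run of capitals, and Mcm6 carried another word closer to its start. Cdc6 held 1 E2F word and no CCAAT word, Mcm10 held 2 CCAAT words and no E2F word, and Mcm2 held neither in this stretch. The Cdc6 stretch is upstream of the RefSeq start, but GENCODE starts the gene earlier, at chr11:98907801. By GENCODE the stretch thus lies inside the gene and outside annotated exons. The E2F words of Mcm3 and Cdt1 lay after the start and are not shown. Mcm7 had 2 windows, of which 1 held E2F words, beginning at bases -165 and 17 from its start. CCAAT, the word bound by NF-Y, occurred in the windows of 7 of the 9 genes (77.8%) against 41.1% of all genes in the promoter table. In the 6 further replication lists it occurred in 25 of 48 genes (52.1%). CHR words (TTTGAA or TTCGAA on either strand), typical of genes that peak in G2 and M phase, occurred in 3 of the 9 and in 21.7% of all genes. The mitotic genes had the other mix, with an E2F word in 1 of 17, a CCAAT word in 16 of 17 and a CHR word in 14 of 17. These are matches of letters, and no binding was measured here.

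The 8 libraries held 6472484 to 10163101 counts, so that 3 counts, the limit that a count of 0 allows, stood for 0.295 to 0.464 CPM. Each of the 10 genes was far above this limit, with 164 to 4736 counts per library. All 10 markers of MuSCs and myoblasts, Pax7 and Myod1 among them, were detected in every library. In contrast, 9 of 10 immune markers, Ptprc among them, had 0 counts in all 8 libraries. A library of each condition stood apart from the rest, vehicle pool 3 and NAM/PN pool 4. Within a condition, pairs with either of them differed by a chi-square per degree of freedom of 64.4 to 82.2, and the other pairs by 22.8 to 28.3. Vehicle pool 3 had the highest share of counts on the rRNA gene row (18.7%) and NAM/PN pool 4 the lowest (5.22%), with 9.09% to 11.6% in the other libraries. NAM/PN pool 4 also had the fewest genes detected (12483), and values of the 10 genes that rest on these libraries are given below with and without them.

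In the 10 genes, 0 passed the test of NAM/PN against vehicle (edgeR quasi-likelihood test, Benjamini-Hochberg adjusted p under 0.05), in a fit that called 154 of all 12060 tested genes, or 1.28%. Fitted log2 fold changes were above 0 for 9 of the 10, all but Cdc45, where 6004 of all tested genes (49.8%) were. Their median log2 fold change was 0.29, beside -0.0022 over all tested genes, and they ranged from -0.20 for Cdc45 to 0.52 for Cdc6. At an unadjusted p under 0.05 the helicase subunit Mcm7 passed, 1 of 10 against 9.28% of all tested genes. With the pool as a block, which accounts for the shared mice, Mcm6 passed besides Mcm7 (log2 fold change 0.60, SE 0.25, unadjusted p 0.0250, edgeR adjusted p 0.411), 2 of 10 against 9.32%. In bulk libraries such as these, fewer cells that express a gene and less of its RNA per cell cannot be told apart.

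**Figure D1:**
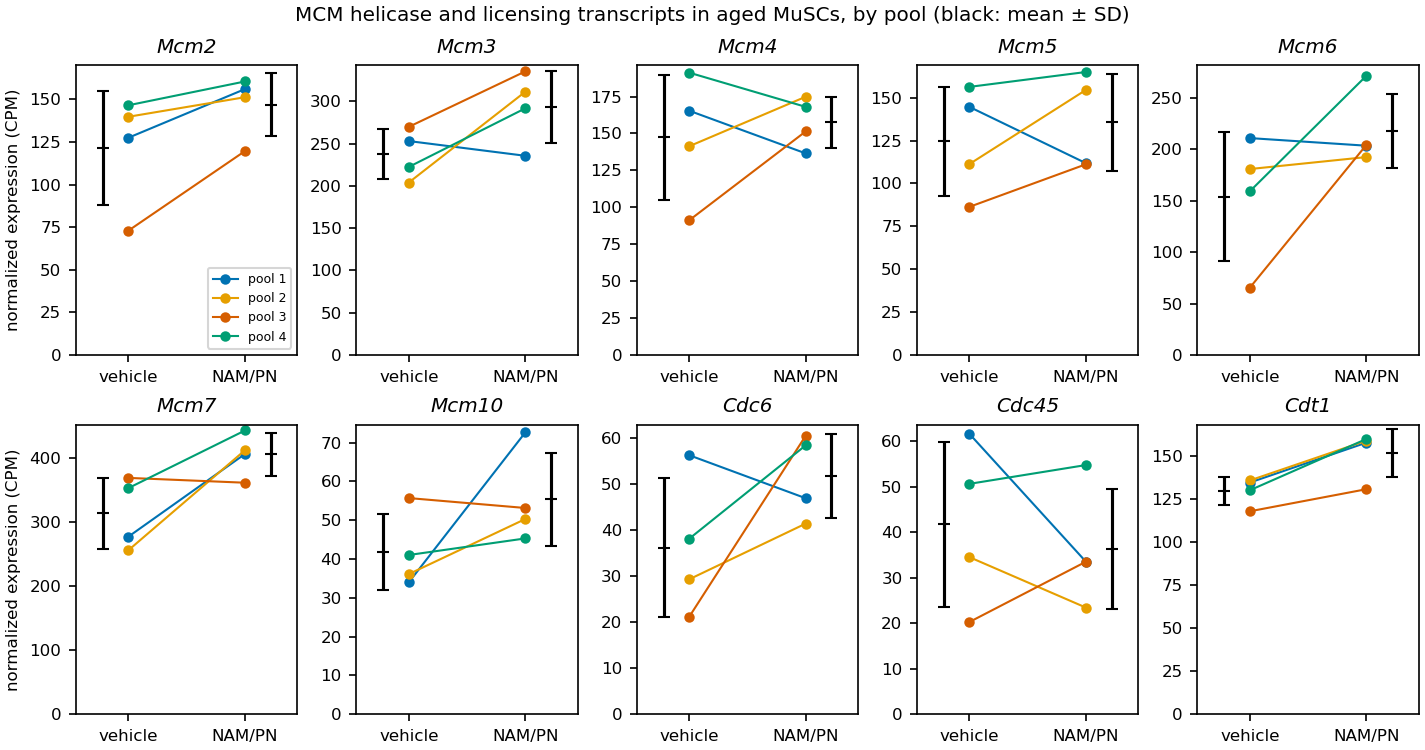
Normalized expression (CPM of 3′ tags, linear axes from 0) of each of the 10 genes in vehicle and NAM/PN libraries. Coloured points are libraries, lines join the libraries of 1 pool, and black bars are mean ± SD (n = 4). The conditions overlap in all 10 panels, and all 4 lines rise in those of Mcm2 and Cdt1 only.

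Mcm7, a subunit of the helicase ring (chr5:138164583-138172422, minus strand, GRCm38), was the most abundant of the 10. It measured 277, 256, 368 and 353 CPM in vehicle pools 1 to 4 and 406, 412, 361 and 442 CPM in NAM/PN libraries. The highest vehicle library, pool 3, lay just above the lowest NAM/PN library, also pool 3, and the other NAM/PN libraries lay above all vehicle libraries. Means were 313 ± 55.5 CPM and 405 ± 33.6 CPM (SD, n = 4), a log2 fold change of 0.37 with SE 0.17 and an edgeR adjusted p of 0.480. An exact permutation test over the 70 assignments of libraries, made without regard to pools, gave p = 0.0571. The smallest two-sided p of that test is 0.0286.

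Mcm6 (chr1:128331590-128359664, minus strand), another subunit of the ring, showed the largest fitted difference of the 6 subunits with all libraries in the fit. Vehicle pools 1 to 4 gave 211, 181, 65.3 and 159 CPM, and NAM/PN pools gave 204, 192, 204 and 271 CPM. Vehicle pool 3 held less than any other library by a wide margin, NAM/PN pool 4 held the most, and the other libraries of the conditions overlapped. From 154 ± 62.8 CPM to 218 ± 36.1 CPM (SD, n = 4), the log2 fold change was 0.50, SE 0.26, with an edgeR adjusted p of 0.611. Without vehicle pool 3 it was 0.24, adjusted p 0.812, below the values of Mcm7 and Mcm3.

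Mcm3 (chr1:20802968-20820312, minus strand) ranked second in level after Mcm7. Its vehicle libraries measured 253, 204, 270 and 222 CPM and its NAM/PN libraries 236, 311, 335 and 292 CPM. With NAM/PN, 3 of 4 libraries lay above every vehicle library, and pool 1 lay inside the vehicle range. The log2 fold change was 0.31 (SE 0.17, edgeR adjusted p 0.659), from 237 ± 29.7 CPM to 294 ± 42.6 CPM (SD, n = 4).

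Mcm2, the subunit that also holds histones at the fork (chr6:88883474-88898780, minus strand), was higher with NAM/PN in all 4 pools. It measured 128, 140, 73.0 and 147 CPM in vehicle and 156, 151, 120 and 161 CPM in NAM/PN libraries. Pool 3 was the lowest library of either condition. Although each pool moved up, the group means of 122 ± 33.4 CPM and 147 ± 18.5 CPM (SD, n = 4) differed by less than the vehicle SD, with a log2 fold change of 0.27 (SE 0.22, edgeR adjusted p 0.826). Leaving out vehicle pool 3 brought it to 0.085, with an adjusted p of 0.982.

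Mcm4 (chr16:15623897-15637400, minus strand) and Mcm5 (chr8:75109569-75128439, plus strand) complete the ring and showed the smallest fitted differences. Mcm4 stood at 165, 141, 91.1 and 191 CPM in vehicle and 137, 175, 151 and 168 CPM in NAM/PN libraries. It was higher with NAM/PN in 2 of 4 pools, and its NAM/PN range lay inside its vehicle range. Mcm5 stood at 145, 111, 86.3 and 156 CPM in vehicle and 112, 155, 111 and 165 CPM in NAM/PN libraries. It was higher in 3 of 4 pools, and all but the highest NAM/PN library lay inside the vehicle range. Fitted log2 fold changes were 0.098 for Mcm4 and 0.12 for Mcm5 (edgeR adjusted p 0.968 and 0.962), and both turned below 0, to -0.080 and -0.024, without vehicle pool 3.

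Summed over the 6 subunits, vehicle pools 1 to 4 held 1178, 1033, 954 and 1228 CPM and NAM/PN pools held 1249, 1396, 1283 and 1499 CPM. The ranges of the sums did not overlap, vehicle pool 4 and NAM/PN pool 1 being the closest, and each pool had more with NAM/PN. The sum is led by Mcm7 and Mcm3, and no subunit by itself separated the conditions. Among all tested genes, 337 (2.79%) had all 4 NAM/PN libraries above all 4 vehicle libraries, and 0 of the 10 did. That share is for single genes, and no such share was computed for sums of 6 genes. Of the list sums given below, those of the clamp and RPA lists were also apart, higher with NAM/PN. The sums of differentiation, of MuSC and myoblast and of mural markers were apart too, lower with NAM/PN. As the protein ring holds 1 copy of each subunit, the shares of the 6 subunits within their sum were compared too. Mcm6 made up 17.9%, 17.5%, 6.85% and 13.0% of it in vehicle pools 1 to 4 and 16.3%, 13.8%, 15.9% and 18.1% with NAM/PN. Mcm7 made up 23.5%, 24.8%, 38.6% and 28.7% with vehicle and 32.5%, 29.5%, 28.1% and 29.5% with NAM/PN. The mixture was thus most unequal in vehicle pool 3, where Mcm7 and Mcm3 together took far more than in the other libraries and Mcm6 far less. With all libraries, none of the 6 shares differed between conditions beyond the spread between libraries (two-sided exact permutation p from 0.286 to 0.971). Mcm4 made up 14.0%, 13.7%, 9.55% and 15.6% in vehicle pools 1 to 4 and 10.9%, 12.5%, 11.8% and 11.2% with NAM/PN. All vehicle libraries but pool 3 lay above the NAM/PN range, and vehicle pool 3 lay below it. Without that library, a comparison added after the data were seen, the Mcm4 share was a mean of 14.4% in vehicle and 11.6% in NAM/PN libraries. Leaving out the only vehicle library not above the NAM/PN range fixed complete separation before the test, so its result carries no weight. The exact permutation p of the Mcm4 share was then 0.0286, the smallest that 35 assignments allow, and 0.171 when adjusted over the 6 shares. The Mcm7 share was then 25.7% and 29.9% (exact permutation p = 0.0571, adjusted 0.171).

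**Figure D2:**
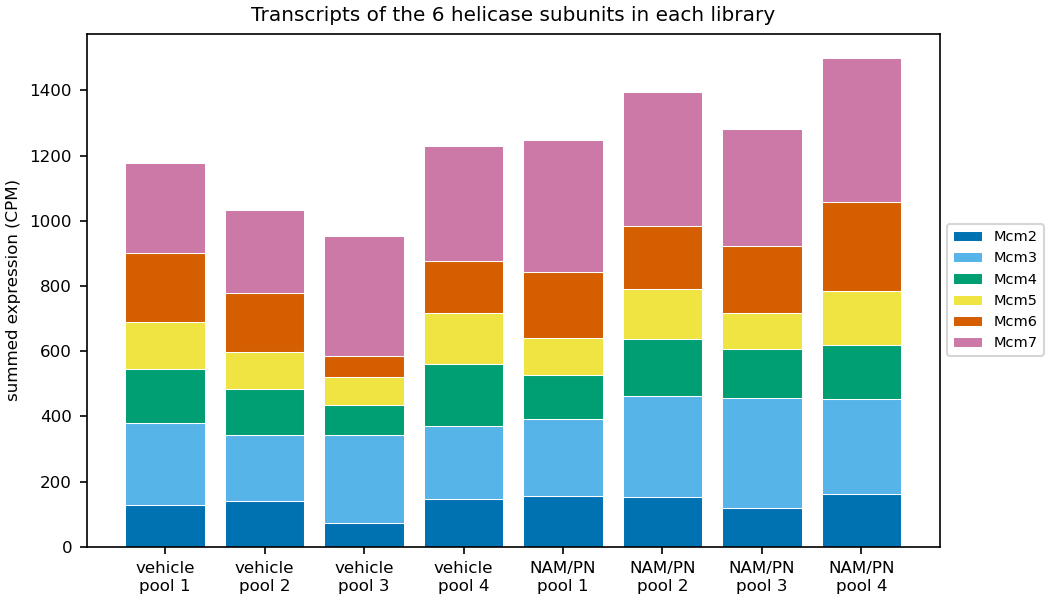
Summed CPM of the 6 helicase subunits in each library, stacked by subunit (linear axis from 0). The 4 NAM/PN bars reach 1249 to 1499 CPM and the 4 vehicle bars 954 to 1228 CPM, and the Mcm6 segment of vehicle pool 3 is the thinnest.

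The loaders came next. Cdt1, the partner that brings the ring to the origin (chr8:122568015-122573554, plus strand), had the tightest vehicle values of the set, with a coefficient of variation of 6.31% in vehicle and 9.29% in NAM/PN libraries. It measured 135, 136, 118 and 130 CPM in vehicle and 158, 159, 131 and 160 CPM in NAM/PN libraries. Each pool was higher with NAM/PN, and NAM/PN pool 3 was the library that overlapped the vehicle range. From 130 ± 8.18 CPM to 152 ± 14.1 CPM (SD, n = 4), the log2 fold change was 0.23, SE 0.17, with an edgeR adjusted p of 0.810 and an exact permutation p of 0.0857. Higher values with NAM/PN in all 4 pools were found for 2 of the 10, Mcm2 and Cdt1, and for 8.56% of all tested genes (1032).

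Cdc6, the ATPase that works with the origin recognition complex (chr11:98907801-98923940, plus strand), had the highest fitted fold change of the set with all libraries in the fit. Vehicle pools gave 56.2, 29.3, 21.1 and 38.1 CPM and NAM/PN pools 46.9, 41.4, 60.5 and 58.4 CPM. Vehicle pool 1 sat among the NAM/PN libraries, and the other vehicle libraries sat below all of them. The fitted log2 fold change was 0.52 (SE 0.30, 95% interval -0.11 to 1.14, edgeR adjusted p 0.692), and it was 0.32 without vehicle pool 3 (adjusted p 0.872), below Mcm10, Mcm7 and Mcm3. Without vehicle pool 1 it was 0.81 (unadjusted p 0.0180, adjusted p 0.382) and without both libraries of pool 1 0.85 (adjusted p 0.489). Pool 3 alone gave a within-pool difference of 1.51 in log2 CPM, while pool 1 gave -0.26.

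Both activation factors were at a lower level than the ring. Mcm10 (chr2:4989714-5012791, minus strand) measured 34.0, 36.1, 55.7 and 41.0 CPM in vehicle and 72.6, 50.3, 53.1 and 45.3 CPM in NAM/PN libraries. The highest value came from NAM/PN pool 1, and vehicle pool 3 lay above 3 of the 4 NAM/PN libraries. It changed from 41.7 ± 9.79 CPM to 55.3 ± 12.0 CPM (SD, n = 4) with a log2 fold change of 0.41, SE 0.26, that did not pass (edgeR adjusted p 0.747). It was 0.25 without NAM/PN pool 1, 0.16 without both libraries of pool 1 and 0.57 without vehicle pool 3.

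Cdc45 (chr16:18780447-18811987, minus strand) was the member with a fitted value below 0. It stood at 61.6, 34.5, 20.3 and 50.6 CPM in vehicle and 33.5, 23.4, 33.5 and 54.7 CPM in NAM/PN libraries. The conditions overlapped along most of their range, and the pools split 2 against 2. The log2 fold change of -0.20 had an SE of 0.34 and a 95% interval from -0.92 to 0.52 (edgeR adjusted p 0.959), the widest interval of the 10. Without vehicle pool 1 its value was 0.044, above 0.

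A limit on the size of change can be read from the 95% intervals of the fits. For the 10 genes they reached up to 2.21-fold for Cdc6 and 2.06-fold for Mcm6 and down to 0.528-fold for Cdc45, so larger changes lie outside them. The interval of Mcm7, from 0.023 to 0.72 in log2, was the only one of the 10 that did not include 0. Leaving out vehicle pool 1 or 2 or NAM/PN pool 1, 2 or 4 brought its unadjusted p to 0.0629 to 0.134, with log2 fold changes of 0.28 to 0.37. At the lowest count of each gene the Poisson coefficient of variation, which is counting error alone, was 2.20% to 7.81%. The vehicle libraries varied by 6.31% for Cdt1, where counting error was 3.41%, and by 12.5% for Mcm3 to 43.4% for Cdc45 in the other 9 genes.

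**Figure D3:**
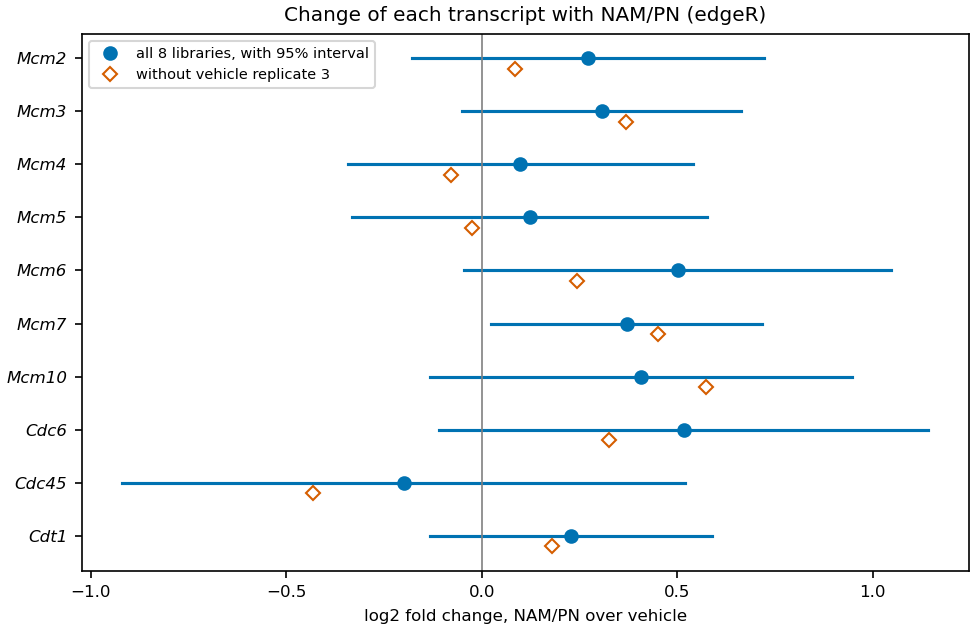
Log2 fold change of NAM/PN over vehicle for each of the 10 genes (edgeR). Filled circles with lines are the fit of all 8 libraries with its 95% interval, and open diamonds the fit without vehicle pool 3 (replicate 3). The Mcm7 line lies clear of 0, from 0.023 to 0.72, and without that library Mcm4 and Mcm5 cross to the left of 0.

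The members did not share 1 pattern over the libraries. Vehicle pool 3 was the lowest of all 8 libraries for 7 of the 10 genes, Mcm2, Mcm4, Mcm5, Mcm6, Cdc6, Cdc45 and Cdt1, but it was the highest vehicle library for the remaining 3, Mcm3, Mcm7 and Mcm10. NAM/PN pool 4 was the highest library for 5 of the 10. By pool, 4, 9, 8 and 9 of the 10 genes were higher with NAM/PN in pools 1 to 4, and the median within-pool difference was -0.077, 0.39, 0.54 and 0.22 in log2 CPM. In pool 1, 6 genes were lower with NAM/PN, and 4 of these, Mcm3, Mcm5, Mcm6 and Cdc6, were higher in each of the other pools. Pool 1 also held the largest within-pool difference of Mcm10 (1.09). Pool 3 held the difference largest in size of the 4 pools for 4 genes, Mcm2, Mcm4, Mcm6 (1.64) and Cdc6.

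**Figure D4:**
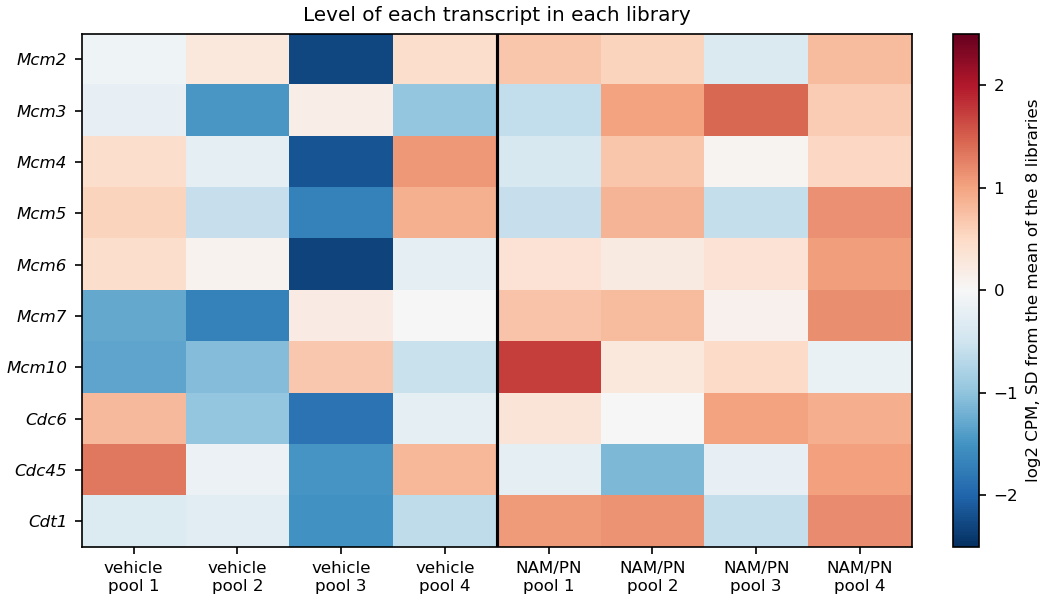
Level of each of the 10 genes in each library as log2 CPM, in SD from the gene's mean over the 8 libraries (blue lower, red higher). In the vehicle pool 3 column 7 genes are at their lowest, whereas Mcm3, Mcm7 and Mcm10 are above their mean.

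The fit was therefore repeated without vehicle pool 3. In that fit 7 of the 10 had a log2 fold change above 0, the median was 0.21, and 0 were called, beside 1.24% of 12559 tested genes (156). An unadjusted p under 0.05 was found for 3 of the 10, beside 9.51% of all genes tested in that fit (1194), and they are those where vehicle pool 3 had been the highest vehicle library. They were Mcm3 with a log2 fold change of 0.37 (adjusted p 0.491), Mcm7 with 0.45 (adjusted p 0.279) and Mcm10 with 0.57 (adjusted p 0.501). Without NAM/PN pool 4 in place of it, 9 of the 10 were above 0 with a median of 0.27, and 0 were called, beside 1.4% of 12679 tested genes (177). Mcm7 then had a log2 fold change of 0.32 (unadjusted p 0.0629, adjusted p 0.549), and 0 of the 10 had an unadjusted p under 0.05, beside 10.2% of all genes in that fit. Mcm6 had 0.38, Mcm5 0.012 and Cdc45 -0.47. The part of the rRNA shares of these libraries in the values was not tested.

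Over the 8 libraries, the log2 CPM of Mcm6 had a Pearson correlation of 0.83 with the mean z-score of the other 9 genes, Cdc6 0.81, Mcm2 0.77, Cdt1 0.75, Mcm5 0.72 and Mcm4 0.70. Those of Mcm7 (0.37), Cdc45 (0.37), Mcm3 (0.22) and Mcm10 (-0.078) were lower. These are descriptions over 8 libraries that share the scaling factors and the low value of vehicle pool 3. Among 9087 other genes whose log2 CPM averaged 3 or more, Fam49b, Ptrh2, Pusl1, Smim3 and Rras2 had values most like the mean z-score of the 10 (Pearson correlation 0.987 to 0.966, n = 8 libraries), and none of these 5 was called. With deviations from the condition means in place of the levels, Fam49b and Ptrh2 were again among the 5 highest.

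In order of mean level over the 8 libraries, Mcm7 (359 CPM) came before Mcm3 (265 CPM), Mcm6 (186 CPM), Mcm4 (152 CPM), Cdt1 (141 CPM), Mcm2 (134 CPM), Mcm5 (130 CPM), Mcm10 (48.5 CPM), Cdc6 (44.0 CPM) and Cdc45 (39.0 CPM). Mcm7 was above Mcm3 in 8 of 8 libraries, by a ratio of 1.08 to 1.72. Elsewhere the ranges of neighbours in this order overlapped, except that every value of Mcm5 lay above every value of Mcm10. All values are 3′-tag levels, and how completely the tags of each gene were captured was not measured.

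Whether the counting used the strand of the reads is not given in the sources used here, and this bears on 2 genes. Mcm7, with 23978 counts in all libraries, shares 64 bases with Cops6 (9484 counts) on the opposite strand, at the 3′ ends of both genes, where these libraries read. At its start it overlaps Ap4m1 (1421 counts), also on the opposite strand. The miRNA genes Mir25, Mir93 and Mir106b, which lie within Mcm7, had 0 counts. The overlap of Cdc45 (2673 counts) with Ufd1 (6394 counts) lies at the starts of both. Ufd1 and Ap4m1 also start head to head with their partners, as Prkdc does with Mcm4 at a distance of 466 bases. Prkdc, the DNA-dependent protein kinase, measured 17.9 ± 9.25 CPM in vehicle and 10.3 ± 5.28 CPM in NAM/PN libraries (SD, n = 4), a log2 fold change of -0.80 (edgeR adjusted p 0.779). Ufd1, a cofactor of the VCP segregase, had a log2 fold change of 0.17 (adjusted p 0.923), and Ap4m1 0.12 (adjusted p 0.985).

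The steps around the helicase were read from 6 further lists, 61 genes of which 60 were tested. Among them 0 were called, 48 had a log2 fold change above 0, 7 were higher and 1 lower at an unadjusted p under 0.05, and the median was 0.25. Medians of single lists ran from 0.085 to 0.48, and from 0.075 to 0.34 without vehicle pool 3. The share at an unadjusted p under 0.05 (8 of 60) is to be read against the 9.28% of all tested genes.

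**Figure D5:**
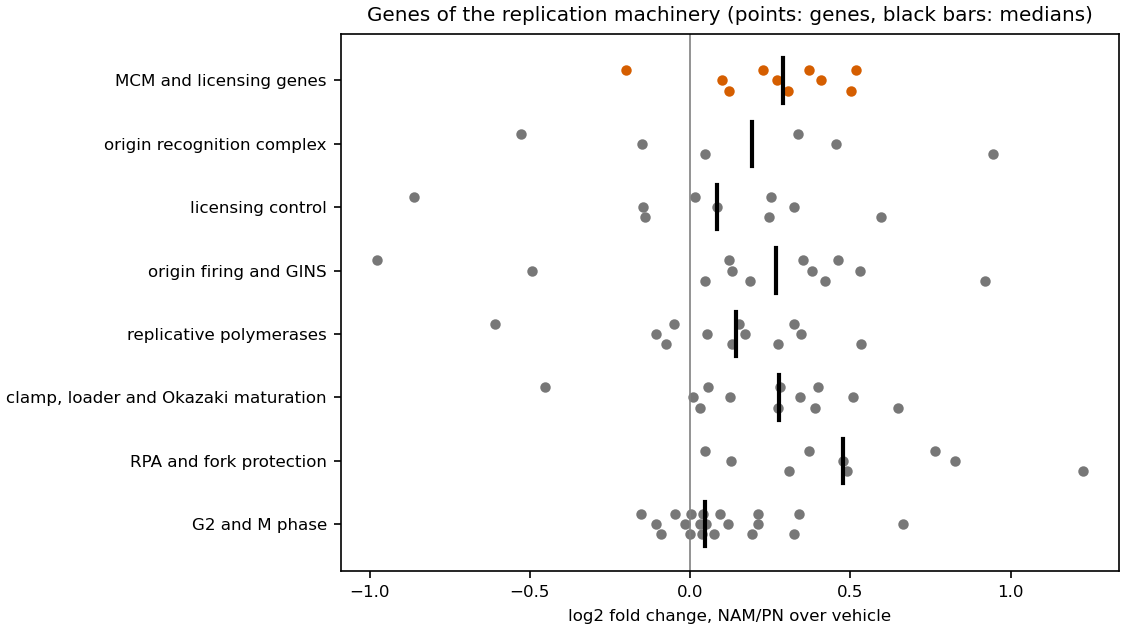
Log2 fold change of NAM/PN over vehicle (edgeR, all 8 libraries) for the 10 helicase and licensing genes (orange), the tested genes of 6 further replication lists and those of the G2 and M phase list (grey). Each point is a gene and black bars are medians, which lie at 0.29 for the 10 genes, from 0.085 to 0.48 for the 6 lists and at 0.046 for G2 and M phase.

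Upstream of the helicase, the 6 subunits of the origin recognition complex had a median of 0.19, with 4 above 0. Orc2 had the smallest p of those above 0 (log2 fold change 0.34, edgeR adjusted p 0.715) and Orc3 of those below (-0.53, adjusted p 0.813). In the list that limits or guides licensing, 6 of 9 tested genes were above 0 with a median of 0.085. Dtl, which targets CDT1 for destruction in S phase, had a log2 fold change of 0.60 (adjusted p 0.405), from 48.3 ± 13.1 CPM to 72.9 ± 12.0 CPM (SD, n = 4), and was higher with NAM/PN in all 4 pools. Mcm8, an MCM paralogue of the repair of DNA breaks, had -0.86 (adjusted p 0.835). Mcmdc2 was not tested for its low counts.

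Downstream, 10 of 12 genes of origin firing and GINS were above 0, with a median of 0.27, and without vehicle pool 3 these were 9 of 12 and 0.15. Donson, which helps to bring GINS to the ring, had 0.92 (edgeR adjusted p 0.529), and Ticrr, the firing factor also known as treslin, had -0.49 (adjusted p 0.860). Of the replicative polymerases, 8 of 12 were above 0 with a median of 0.14. Pola1, the catalytic subunit of the polymerase that extends primers, measured 64.5 ± 9.06 CPM in vehicle and 80.8 ± 4.59 CPM in NAM/PN libraries (SD, n = 4), which did not overlap. Its exact permutation p was 0.0286, the smallest that permutation without regard to pools can give, but its edgeR adjusted p was 0.743 at a log2 fold change of 0.32. Pold4 had -0.61 (adjusted p 0.869).

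In the clamp, loader and Okazaki list 11 of 12 genes were above 0 with a median of 0.28, and 9 of 12 with 0.24 without vehicle pool 3. Unadjusted p values under 0.05 belonged to Rfc5 (log2 fold change 0.65, edgeR adjusted p 0.415), Fen1 (0.51, adjusted p 0.492), Lig1 (0.34, adjusted p 0.465) and, below 0, Rnaseh2c (-0.45, adjusted p 0.465). Fen1 and Lig1, the nuclease and the ligase that finish Okazaki fragments, were named after their values were seen. Lig1 measured 473 to 607 CPM in vehicle and 668 to 708 CPM in NAM/PN libraries, which did not overlap either (exact permutation p = 0.0286). Such a gap upward was found for 1 of 12 tested genes each in the origin firing, polymerase and clamp lists. It was found for 0 in the origin recognition, licensing control and RPA lists, beside 2.79% of all tested genes. In the RPA and fork protection list all 9 genes were above 0 and the median was 0.48, and without vehicle pool 3 these were 8 of 9 and 0.34. Tipin had 0.49 (adjusted p 0.406) and its partner Timeless, also named after its value was seen, 0.83 (adjusted p 0.440). Summed over a list, the ranges of the conditions did not overlap for this one (491 to 592 CPM in vehicle, 641 to 685 CPM in NAM/PN libraries) and for the clamp list (1119 to 1336 CPM, 1413 to 1688 CPM). They overlapped for the origin recognition complex, licensing control, origin firing and polymerase lists.

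The G2 and M phase list stood lower than the helicase genes. Of its 20 genes, 14 were above 0, 0 were called and the median was 0.046. Bub1, a checkpoint kinase, had 0.66 (edgeR adjusted p 0.439) and the spindle motor Kif11 -0.11 (adjusted p 0.968). The summed level was 3334 to 3715 CPM in vehicle and 3279 to 3861 CPM in NAM/PN libraries. Whether the lists differ from each other was not tested.

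Markers of differentiation and of other cell types were summed in the same libraries. The 20 differentiation markers, Myog and the sarcomere genes among them, summed to 2468 to 4532 CPM in vehicle and 580 to 1449 CPM in NAM/PN libraries, and 16 of the 20 were called lower (17 with the pool as a block, where Cdkn1c lost its call and Actc1 and Ttn gained one). The 10 markers of MuSCs and myoblasts summed to 3123 to 3556 CPM and 2516 to 3114 CPM, with 0 called. Of other cell types, the 9 mural markers summed to 290 to 618 CPM and 107 to 156 CPM, with Myh11 at 0 throughout, and Acta2, which muscle cells also make, was called lower (368 ± 125 CPM and 70.5 ± 35.1 CPM, SD, n = 4). The 10 endothelial markers summed to 15.1 to 35.9 CPM and 14.3 to 37.8 CPM, with Flt1, Tie1, Cldn5 and Emcn at 0 in all libraries. The 10 immune markers summed to 0.979 to 7.58 CPM over the 8 libraries, all from Cd68. The 10 fibro-adipogenic markers summed to 283 to 350 CPM in vehicle and 86.5 to 1233 CPM in NAM/PN libraries, with Pdgfra, Lum and Dpt at 0 in all libraries, and 2 of the 4 tested, Gsn and Col3a1, were called lower. The other 2 had fitted values above 0, Col1a1 with a log2 fold change of 4.97 (edgeR adjusted p 0.0709, 3.27 to 1032 CPM over the NAM/PN libraries) and Col1a2 with 1.68 (adjusted p 0.477), and these collagens were named after their values were seen. The part of these shifts in the values of the helicase and licensing genes was not tested.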

How the data were processed

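RNA of 8 pooled MuSC cultures was sequenced as QuantSeq 3′ libraries. The authors aligned the reads to GRCm38 with STAR and deposited raw counts per gene made with HTSeq, which the submitters' processing notes name; the annotation release, strand setting and treatment of multiply mapped reads are not given in the sources used here. Here, genes were filtered with filterByExpr (minimum count 10, total 15), leaving 12060, and tested with edgeR 4.0.16 in R 4.3.3 (TMM, glmQLFit, glmQLFTest, two-sided, Benjamini-Hochberg over all tested genes, threshold 0.05) without a pool term; the test was checked on simulated data. The log2 CPM of single genes was also compared by exact permutation over 70 assignments. These permutations, like those of the subunit shares, did not keep libraries paired by pool. Floors and Poisson values cover counting error only, while the 95% intervals of fold changes come from the edgeR standard errors and include the spread between libraries. Vehicle and NAM/PN libraries of a pool come from the same mice; their deviations from the condition means had a mean correlation of 0.000332 (-0.0332 to 0.0313), and the pool block was an alternative. Others were DESeq2 1.42.0, limma 3.58.1 (voomWithQualityWeights), other scalings and filters, thinning, removal of the rRNA gene row, and leaving out libraries. No columns were left unassigned and no 2 libraries agreed within sampling noise (lowest chi-square per degree of freedom 22.8).

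The members and lists were chosen with earlier results of these data known. Besides the members, the genes named are those with the smallest p in each direction of each replication list. Further ones are head-to-head neighbours with starts within 1000 bases and the 5 genes most like the members' mean z-score. Genes that overlap a member, the untested Mcmdc2, and markers, as examples or for their calls, were named too. Fen1, Lig1, Timeless and the collagens Col1a1 and Col1a2 were added after their values were seen. Promoters are from RefSeq (GRCm38.p6), positions from GENCODE.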

Additional observations from a re-analysis of the deposited data

Results flagged for a closer look

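Mcm6 in NAM/PN pool 4 measured 271.42 CPM, against 192 to 204 CPM in the other NAM/PN libraries. Its gap to the next library was 0.851 of the group's range, above Dixon's critical value for 4 values. Cdt1 in NAM/PN pool 3 measured 130.65 CPM, against 158 to 160 CPM in the other NAM/PN libraries, with a gap of 0.927 of the range. In all, 34 groups of 4 were examined, of which chance would set apart about 1.7 and these 2 were.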

How the results depend on the processing

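The count of called members was 0, and that of the other replication lists 0, under every alternative run, and the members' median log2 fold change was 0.273 to 0.307 under other settings and 0.211 to 0.325 with libraries left out. The lowest adjusted p of any member was 0.206, for Mcm7. With the pool as a replicate block, 156 genes were called in place of 154, and it changed no call of a member or replication gene. Among the differentiation markers Cdkn1c lost its call (adjusted p 0.0586), and Actc1 (0.00931) and Ttn (0.00079) gained one. All genes called were 366 without the filter on low counts, 388 with DESeq2 and 232 with voomWithQualityWeights. With libraries left out they were 42 (without both libraries of pool 2) to 177 (without NAM/PN pool 4): 92 without NAM/PN pool 1, 80 and 87 without vehicle pools 2 and 4, and 65 and 94 without pools 1 and 4. The fitted direction turned for Mcm4 with voomWithQualityWeights (-0.013), without vehicle pool 3 (-0.080) and without pool 3 (-0.058), for Mcm5 with voomWithQualityWeights (-0.020) and without vehicle pool 3 (-0.024), and for Cdc45 without vehicle pool 1 (0.044) and without pool 1 (0.082). With libraries left out, log2 fold changes ran from -0.080 to 0.24 for Mcm4, from -0.024 to 0.28 for Mcm5, from -0.47 to 0.082 for Cdc45, from 0.16 to 0.60 for Mcm10, from 0.25 to 0.85 for Cdc6, from 0.24 to 0.72 for Mcm6 and from 0.28 to 0.51 for Mcm7. Without vehicle pool 3, chosen after the data were seen for the subunit shares, the difference in share turned from -0.21 to 1.92 percentage points for Mcm3 and from 2.22 to -0.094 for Mcm6. The cause was not tested. Each member had 164 or more counts in every library, well above the floor of 3.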
